A study of Mus musculus with 8 samples.

Results

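The genes described here are those of the colony-stimulating factor (CSF) receptors of the mouse macrophage, one of their ligands and a transcription factor of the lineage: Csf1r, Csf1, Csf2ra, Csf2rb, Csf2rb2, Csf3r and Spi1, which encodes PU.1. They were taken by name, 7 of the 23354 gene symbols in the deposited tables. Of these, 6 were matched by symbol and Spi1 by its older symbol Sfpi1. All 7 had at least 1 FPKM in at least 2 libraries and were tested. The tables place them in mm10 at chr18:61105572-61131139 (Csf1r), chr3:107741048-107760469 (Csf1), chr19:61224402-61228418 (Csf2ra), chr15:78325990-78351001 (Csf2rb), chr15:78282510-78305603 (Csf2rb2), chr4:126024659-126044975 (Csf3r) and chr2:91096797-91115756 (Spi1). In GENCODE release M21 the only other genes annotated within these spans are microRNA genes in Csf1r, Csf2rb and Csf2rb2, 1 in each and on the same strand.

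The study sequenced total RNA from macrophages grown from the bone marrow of male mice of 8 weeks in medium conditioned by L929 cells for 7 days. The 4 groups, each of 2 libraries, were cells titled Ern1f/f without treatment, Ern1f/f given interleukin 4 (IL-4) at 20 ng/ml for a period of 24 hours, Ern1f/fLyz2-Cre without treatment, and Ern1f/fLyz2-Cre with IL-4. All libraries carry the labelled strain C57BL/6J, and all groups, controls included, carry floxed alleles of Ern1, the gene of the endoplasmic reticulum stress sensor IRE1 alpha. In Ern1f/fLyz2-Cre mice Cre is driven from the Lyz2 gene, which is active in macrophages and neutrophils and their precursors. No group without floxed alleles was used here, and the labels do not say how many mice gave each library, so p-values measure the spread between these libraries.

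Ern1 lay between 9.11 and 11.5 FPKM in the 4 libraries titled Ern1f/f and between 7.43 and 14.3 FPKM in the 4 titled Ern1f/fLyz2-Cre. A value over the whole gene does not check a deletion of part of it, and the labels do not say which exons are floxed. Lyz2, the gene that carries Cre, was at 18114 FPKM in Ern1f/f and 10949 FPKM in Ern1f/fLyz2-Cre control replicate 1, and at 17415 against 2171 FPKM in control replicate 2. With IL-4 it was at 8901 against 5780 FPKM in replicate 1 and 11961 against 1572 FPKM in replicate 2. All 9 macrophage markers found under their listed symbols were detected in every group. Groups are named by title. The labels also hold a genotype field. It contradicts the title of 4 libraries, reading Ern1f/f for each replicate 1 and Ern1f/fLyz2-Cre for each replicate 2, so taken by that field the genotypes cannot be told apart from the replicate numbers.

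CSF1 and its receptor, the tyrosine kinase encoded by Csf1r, keep macrophages alive and dividing, and L929 cells, a mouse fibroblast line, are used because they release CSF1 into the medium. GM-CSF acts through a specific alpha chain (Csf2ra) and the common beta chain (Csf2rb), which signal through JAK2 and STAT5. The mouse has a second, closely related beta chain, Csf2rb2, which serves IL-3 alone. Csf3r is the receptor of G-CSF and is best known from neutrophils, and PU.1 is the ETS-family factor that drives the transcription of several of these receptors in myeloid cells.

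The beta chain genes lie beside each other on chromosome 15 and are so alike that short reads can fall on both, so their sequences are shown first. Over 2628 aligned coding bases of GENCODE release M21 (GRCm38, equal to mm10) the genes are identical at 95.2%. Of all 50-base windows of the Csf2rb coding sequence, 26.2% stand unchanged in a Csf2rb2 transcript, and 11.1% of 100-base windows do. The longest coding stretch within 1 exon that the genes share without a mismatch has 242 bases. It lies in exon 14 of each, at chr15:78348577-78348818 on the plus strand for Csf2rb and chr15:78284630-78284871 on the minus strand for Csf2rb2.

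Csf2rb and Csf2rb2, shared run: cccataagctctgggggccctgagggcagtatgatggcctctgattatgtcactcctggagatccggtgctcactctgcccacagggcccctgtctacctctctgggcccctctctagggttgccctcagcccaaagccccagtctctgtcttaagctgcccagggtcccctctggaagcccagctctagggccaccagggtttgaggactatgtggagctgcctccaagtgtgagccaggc

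The coding window of 60 bases with the most mismatches, 13, lies in exon 4, at chr15:78338893-78338952 on the plus strand for Csf2rb and chr15:78294379-78294438 on the minus strand for Csf2rb2. Capitals mark the bases that differ.

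Csf2rb: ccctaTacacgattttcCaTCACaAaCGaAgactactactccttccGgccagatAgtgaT
Csf2rb2: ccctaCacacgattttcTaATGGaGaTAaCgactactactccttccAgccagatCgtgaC

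How reads that fit both genes were divided is not given in the sources used here. The values of Csf2rb and Csf2rb2 are therefore uncertain as a split, and their sum is given beside them.

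RefSeq promoter windows (GRCm38.p6) were matched for 4 of the 7 genes: Csf1, Csf2ra, Csf2rb2 and Csf3r. Those of Csf1, Csf2ra and Csf3r adjoin the gene spans given above. The Csf2rb2 window begins at chr15:78305722, beyond the end of its gene span at 78305603, so the 2 starts differ. Windows are shown for the receptor genes that were higher with IL-4 and had one. In the 250 bases before the RefSeq start, the letters GAGGAAG, a form of the PU.1 site, were searched on both strands. They stand in 3 of the 4 windows (Csf2ra, Csf2rb2 and Csf3r) and in 10.6% of all 32851 windows of that length. The Csf2ra window holds them 2 times, overlapping by 1 base. The STAT6 type of site, TTC and GAA set 4 bases apart on one strand, stands in 0 of the 4 windows and in 5.85% of all. The STAT5 type, with TTC and GAA set 3 bases apart, stands 1 time in the Csf2rb2 window. It is absent from the windows of Csf1, Csf2ra and Csf3r and stands in 7.02% of all. Capitals mark GAGGAAG or its reverse complement, and these matches describe letters, not bound sites.

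Csf2ra, chr19:61228419-61228668, minus strand: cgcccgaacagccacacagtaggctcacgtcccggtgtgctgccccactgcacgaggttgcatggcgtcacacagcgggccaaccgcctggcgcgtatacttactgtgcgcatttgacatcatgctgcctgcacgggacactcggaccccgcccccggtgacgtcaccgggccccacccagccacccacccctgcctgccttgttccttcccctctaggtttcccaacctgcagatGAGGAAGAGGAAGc
Csf2rb2, chr15:78305722-78305971, minus strand: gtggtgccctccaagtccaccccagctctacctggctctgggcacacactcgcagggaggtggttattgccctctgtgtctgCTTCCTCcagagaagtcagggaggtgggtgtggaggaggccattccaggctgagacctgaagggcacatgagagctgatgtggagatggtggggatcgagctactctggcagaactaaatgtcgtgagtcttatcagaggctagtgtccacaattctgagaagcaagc

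The 7 genes covered a wide range of levels in FPKM, a unit that is scaled by transcript length and can be set side by side between genes. Csf1r had the highest mean over the 8 libraries, 624.1 FPKM, and ranked between 100 and 214 among all symbols of each library. Spi1 followed with a mean of 364.5 FPKM, then Csf2ra with 232.9, Csf2rb with 131.3, Csf2rb2 with 99.3, Csf3r with 32.6 and Csf1 with 16.9. Neighbours in this order changed places between libraries. In replicate 2 of the control groups Spi1 exceeded Csf1r, at 446.0 against 429.3 FPKM in Ern1f/f cells and 408.7 against 356.3 FPKM in Ern1f/fLyz2-Cre cells. Csf2rb and Csf2rb2 were at nearly one level in replicate 1 of the control groups, with ratios of 0.992 in Ern1f/f and 1.03 in Ern1f/fLyz2-Cre cells. Csf3r exceeded Csf1 in all but replicate 1 of the Ern1f/fLyz2-Cre groups, where Csf1 was at 43.1 against 31.9 FPKM in control and 32.4 against 27.9 FPKM with IL-4.

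Spi1 varied least, its highest library being 1.38 times its lowest, and Csf1 most, at 15.5 times. The other genes spanned from 1.99 times for Csf3r to 2.645 times for Csf2ra. The interval that the tables give for 1 library reached 1.05% of the value for Csf1r, 3.46% for Csf3r and 12.5% for Csf1. It covers the error within a library only.

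**Figure D1:**
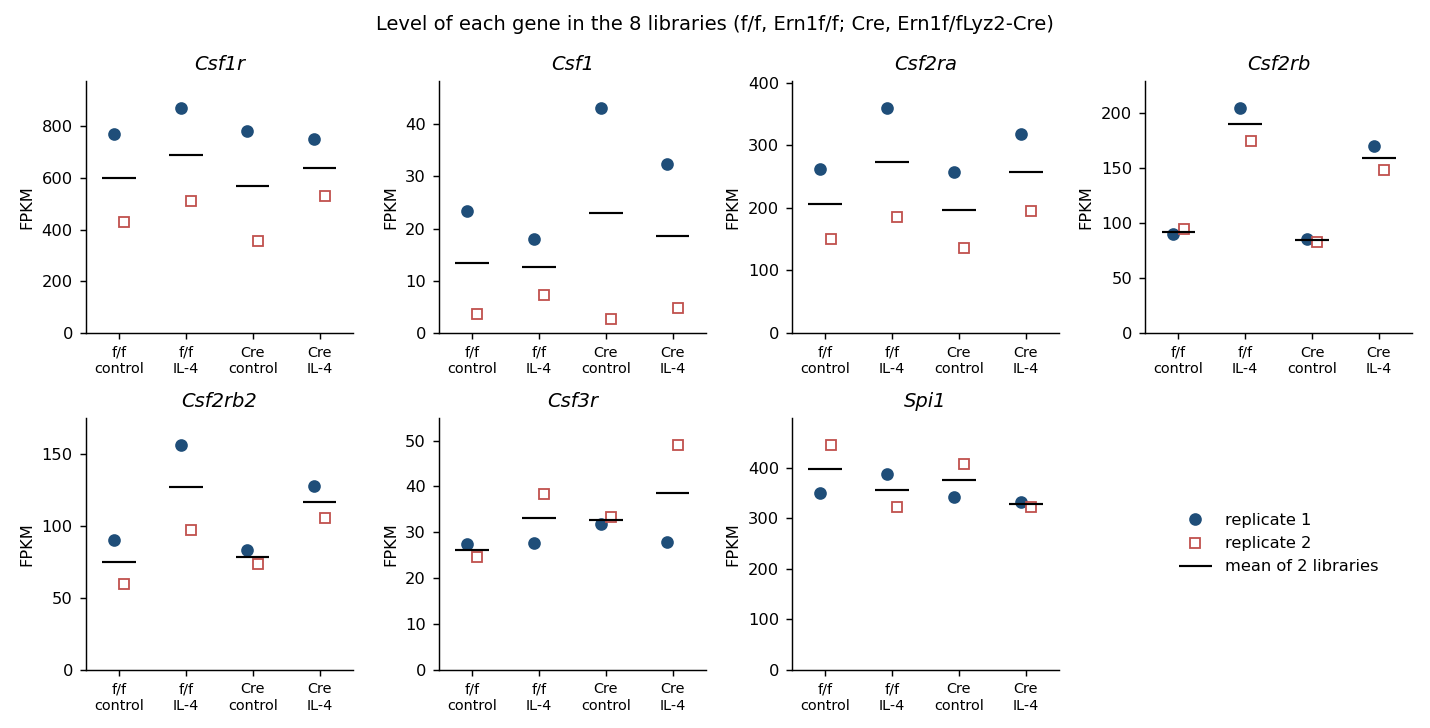
FPKM of each of the 7 genes in the 8 libraries, by group on the x axis. Circles are replicate 1, open squares replicate 2, and the line is the mean of the 2 libraries. Csf2rb with IL-4 lies at 148.5 to 204.4 FPKM, above the control libraries at 82.7 to 94.5 FPKM, while Csf1 is parted by replicate number.

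IL-4 is the cytokine that drives alternative activation of macrophages. With it, the GM-CSF receptor alpha chain and the beta chains of the GM-CSF and IL-3 receptors were higher in each of the 4 pairs of libraries. How many of all genes were higher in each pair, or had no overlap between IL-4 and control libraries, was not counted. These patterns are therefore a description of single genes. Averaged over the genotypes, Csf2rb rose 1.96-fold and passed the test with and without the replicate number in the fit. Csf2rb2 rose 1.57-fold and Csf2ra 1.32-fold, and both passed only with that number in the fit. With no filter on low values Csf2ra did not pass. Csf1r, Csf3r, Csf1 and Spi1 did not pass the test. Differences below are on the log2(FPKM + 1) scale, from limma, with p-values adjusted over all 10934 genes tested and calls at an adjusted p under 0.05. Fitting 4 group means, 1 of the 7 genes was called higher against 0.668% of all genes. With the replicate number added as a block it was 3 of 7 against 5.88% of all genes. These counts are a description, because the 7 genes were chosen with earlier results of these data known. Csf2rb and Csf2rb2 can also share reads, so their calls are not separate.

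Csf2rb was at 89.8 and 94.5 FPKM in Ern1f/f control replicates 1 and 2 and at 204.4 and 174.5 FPKM with IL-4. In Ern1f/fLyz2-Cre cells it was at 85.8 and 82.7 FPKM in control and 170.1 and 148.5 FPKM with IL-4. Every IL-4 library lay above every control library, and the ratio of IL-4 to control ran from 1.8 to 2.28 over the 4 pairs of libraries. The difference averaged over genotypes was 0.97 (SE 0.10, adjusted p = 0.0187; with the block SE 0.09, adjusted p = 0.0021). Without the block the call was lost when any 1 of the 8 libraries was left out (log2 difference 0.91 to 1.02, adjusted p 0.0531 to 0.106), and with the block it held in all 8 cases (adjusted p 0.00598 to 0.0195).

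Within a genotype, no gene of the table passed without the block in Ern1f/f cells (0% of genes, 673 at an unadjusted p under 0.05), and 0.0549% of genes were called higher in Ern1f/fLyz2-Cre cells, none of them among the 7. There the Csf2rb difference was 1.03 (SE 0.14, adjusted p = 0.115) in Ern1f/f cells and 0.91 (SE 0.14, adjusted p = 0.13) in Ern1f/fLyz2-Cre cells. With the block Csf2rb was called in both, with adjusted p = 0.0151 in Ern1f/f cells, where 1.26% of genes were called higher, and adjusted p = 0.0181 in Ern1f/fLyz2-Cre cells, where 1.79% were. Each of these blocked calls held in 4 of the 8 fits with 1 library left out.

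Csf2rb2 was at 90.5 and 59.5 FPKM in Ern1f/f control replicates 1 and 2 and at 156.6 and 97.3 FPKM with IL-4. The Ern1f/fLyz2-Cre libraries were at 83.4 and 73.4 FPKM in control and at 127.8 and 105.9 FPKM with IL-4. The IL-4 and control libraries did not overlap, and the 4 ratios ran from 1.44 to 1.73. The averaged difference was 0.65 (SE 0.21, adjusted p = 0.252; with the block SE 0.11, adjusted p = 0.0139). The blocked call was lost without Ern1f/f control replicate 2, Ern1f/fLyz2-Cre IL-4 replicate 1 or Ern1f/fLyz2-Cre IL-4 replicate 2, with adjusted p up to 0.0621.

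As a sum, which depends less on how reads were divided between the genes, the beta chains were at 180.3 and 153.9 FPKM in Ern1f/f control and 361.0 and 271.8 FPKM with IL-4. In Ern1f/fLyz2-Cre cells the sum was 169.2 and 156.1 FPKM in control and 297.9 and 254.4 FPKM with IL-4. Within each genotype and replicate number the ratio of Csf2rb to Csf2rb2 was larger with IL-4, from 0.992 to 1.305 and 1.588 to 1.793 in Ern1f/f cells and from 1.03 to 1.33 and 1.127 to 1.402 in Ern1f/fLyz2-Cre cells.

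Csf2ra, the alpha chain that binds GM-CSF, was at 261.9 and 150.2 FPKM in Ern1f/f control replicates 1 and 2 and at 359.3 and 186.0 FPKM with IL-4. In Ern1f/fLyz2-Cre cells it was at 257.6 and 135.9 FPKM in control and 318.0 and 194.9 FPKM with IL-4. The groups overlapped over all libraries, but IL-4 was above control in each of the 4 pairs, with ratios of 1.23 to 1.43. The averaged difference was 0.40 (SE 0.35, adjusted p = 0.718; with the block SE 0.08, adjusted p = 0.0272). The blocked call was lost with any 1 library left out (adjusted p 0.0562 to 0.102), and with no filter on low values (adjusted p = 0.0508).

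**Figure D2:**
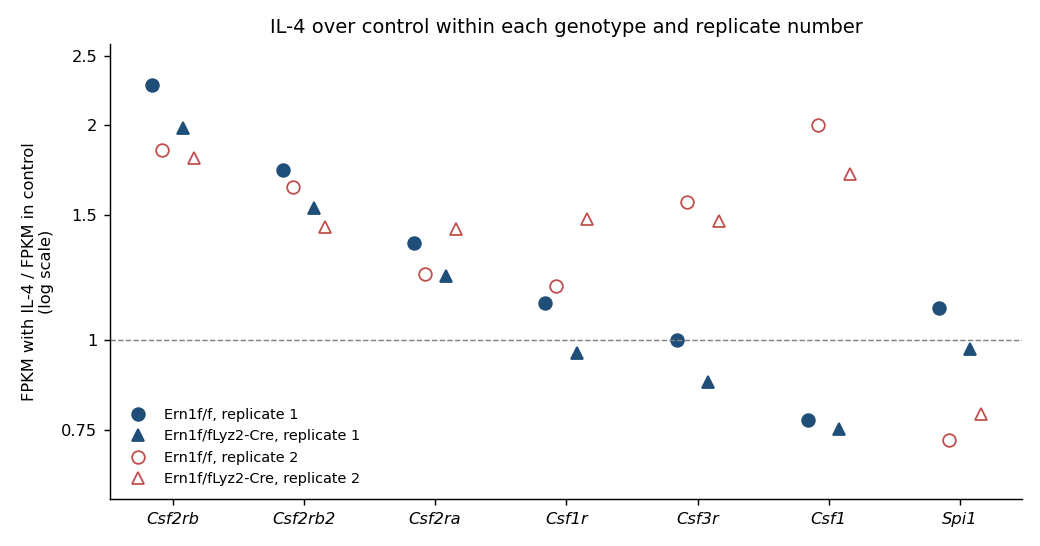
Ratio of FPKM with IL-4 to FPKM in control for each gene, on a log axis, within each genotype (circle Ern1f/f, triangle Ern1f/fLyz2-Cre) and replicate number (filled 1, open 2). The 4 ratios of Csf2rb lie at 1.8 to 2.28, and those of Csf1 lie on either side of 1 by replicate number.

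For Csf1r, the CSF1 receptor, control libraries were at 769.6 and 429.3 FPKM in Ern1f/f cells and 780.2 and 356.3 FPKM in Ern1f/fLyz2-Cre cells. With IL-4 they were at 869.9 and 509.5 FPKM and at 748.9 and 529.0 FPKM. The IL-4 and control libraries overlapped, and IL-4 was above control in 3 of the 4 pairs (ratios 0.96 to 1.48; averaged difference 0.23, with the block SE 0.11 and adjusted p = 0.225).

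Spi1 was at 350.6 and 446.0 FPKM in Ern1f/f control replicates 1 and 2 and at 388.9 and 323.5 FPKM with IL-4. The Ern1f/fLyz2-Cre values were 342.0 and 408.7 FPKM in control and 333.2 and 322.7 FPKM with IL-4. IL-4 was above control in 1 of the 4 pairs (ratios 0.725 to 1.11), and the averaged difference was -0.17 (with the block SE 0.12, 95% interval -0.46 to 0.11, adjusted p = 0.379).

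Csf3r was at 27.5 and 24.6 FPKM in Ern1f/f control replicates 1 and 2 and at 27.6 and 38.5 FPKM with IL-4. Its Ern1f/fLyz2-Cre values were 31.9 and 33.4 FPKM in control and 27.9 and 49.1 FPKM with IL-4. Only the replicate 2 libraries with IL-4 stood above all control libraries, and the averaged difference was 0.25 (with the block SE 0.16, adjusted p = 0.346). Neutrophils express Csf3r strongly, and their markers summed to between 23.1 and 52.2 FPKM, with 6 of the 11 found in the tables under 1 FPKM in every library and 1 at 0 in all. Within each genotype and replicate number the sum of these markers was lower with IL-4 than in control. In replicate 2 it went from 52.2 to 34.0 FPKM in Ern1f/f cells and from 39.2 to 30.95 FPKM in Ern1f/fLyz2-Cre cells. The part of neutrophils in the Csf3r values was not tested.

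Csf1, the ligand, was at 23.3 and 3.60 FPKM in Ern1f/f control replicates 1 and 2 and at 18.1 and 7.20 FPKM with IL-4. In Ern1f/fLyz2-Cre cells it was at 43.1 and 2.77 FPKM in control and 32.4 and 4.75 FPKM with IL-4. Every replicate 1 library lay above every replicate 2 library, and the IL-4 difference averaged over genotypes was 0.17 (with the block SE 0.33, adjusted p = 0.772).

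Genotype moved none of the 7 genes past the test, in control cells, with IL-4 or averaged, with or without the block, and none had an unadjusted p under 0.05. Over all genes, limma called 0% for genotype in each of these comparisons, except for 0.00915% with IL-4 when the block was included. In the fit of group means 27 genes in control, 42 with IL-4 and 52 averaged had an unadjusted p under 0.05, and with the block 137, 189 and 223 did. Averaged over treatments, Ern1f/fLyz2-Cre minus Ern1f/f was -0.19 for Csf2rb, 0.25 for Csf3r, 0.22 for Csf1, -0.10 for Csf1r, -0.097 for Spi1, -0.069 for Csf2ra and 0.0027 for Csf2rb2. By pairs of libraries, the ratio of Ern1f/fLyz2-Cre to Ern1f/f was 0.832 to 0.956 for Csf2rb, 0.857 to 0.998 for Spi1 and 1.01 to 1.36 for Csf3r. For Csf1 (0.66 to 1.85), Csf1r, Csf2ra and Csf2rb2 the pairs went both ways. How many of all genes kept one direction was not counted. With the block the 95% intervals were -0.39 to 0.017 for Csf2rb, -0.26 to 0.26 for Csf2rb2 and -0.38 to 0.17 for Csf1r, and wider for Csf1, at -0.57 to 1.01.

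The IL-4 difference was not shown to depend on genotype for any of the 7. The interaction lay between -0.18 and 0.044 over the genes, and none was called by limma among the 7 or in the whole table (0% of genes). Across all genes tested, 19 had an unadjusted p under 0.05 in the fit of group means, and 103 did once the number was a block. For Csf2rb it was -0.12, with a 95% interval of -0.62 to 0.38 without the block and -0.53 to 0.29 with it. For Csf2rb2 it was -0.18 (-0.70 to 0.34 with the block) and for Csf2ra 0.030 (-0.36 to 0.42 with the block). These intervals do not show that the genotypes respond alike.

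Between the replicate numbers the CSF1 axis and the GM-CSF alpha chain differed. With the 4 groups and the number in the fit, 4 of the 7 genes (Csf1, Csf1r, Csf2ra and Csf2rb2) were lower in replicate 2, against 23.3% of all genes lower and 33.4% called in either direction. Because the genotype field follows the replicate number, this comparison is also that of the genotype field. The labels do not say what the number marks.

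Csf1 fell by 2.43 on the log2 scale in replicate 2 (SE 0.33, adjusted p = 0.00327), to between 0.0643 and 0.398 of replicate 1 in the 4 groups. Csf2ra fell by 0.84 (adjusted p = 0.00107), to between 0.518 and 0.613 of replicate 1. Csf1r fell by 0.81 (adjusted p = 0.00365), to between 0.457 and 0.706. Each of these calls held with any 1 library left out. Csf2rb2 fell by 0.43 (adjusted p = 0.0251), a call that held in 2 of those 8 fits, when Ern1f/fLyz2-Cre control replicate 1 or 2 was left out.

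Csf2rb, Spi1 and Csf3r were not called between the replicate numbers. Csf2rb differed by -0.10 (adjusted p = 0.394), Spi1 by 0.073 (adjusted p = 0.662) and Csf3r by 0.29 (adjusted p = 0.195). The alpha chain and the beta chains of one receptor family thus stood in different ratios at the 2 replicate numbers: Csf2ra was at 1.453 and 1.523 times the summed beta chains in replicate 1 of the control groups and at 0.976 and 0.871 times in replicate 2.

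**Figure D3:**
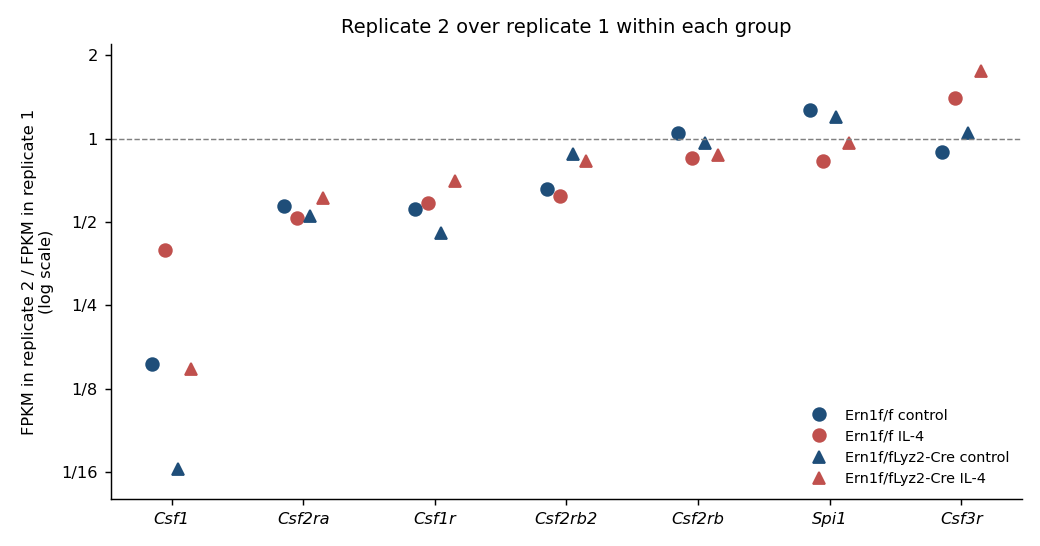
Ratio of FPKM in replicate 2 to FPKM in replicate 1 for each gene, on a log axis, within each of the 4 groups. The ratios of Csf1 lie between 0.0643 and 0.398 and those of Csf2ra between 0.518 and 0.613, while those of Csf2rb lie between 0.854 and 1.05.

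Csf1 also differed between the replicate numbers in how it varied with IL-4 and with genotype. In replicate 1 the IL-4 library was at 0.775 and 0.752 times its control in the 2 genotypes, and in replicate 2 at 2 and 1.71 times. Ern1f/fLyz2-Cre was at 1.85 and 1.79 times Ern1f/f in replicate 1 and at 0.77 and 0.66 times in replicate 2. A fit with these terms, chosen after the data were seen, gave an IL-4 difference larger by 1.10 in replicate 2 (SE 0.16, adjusted p = 0.000118), where 10.8% of all genes were called. The genotype difference was smaller by 1.23 (value -1.23, SE 0.16, adjusted p = 3.55e-05), where 5.66% of all genes were called. For Csf3r the IL-4 difference was larger by 0.68 in replicate 2 (SE 0.16, adjusted p = 0.00786). The Csf3r call was lost in 6 of the 8 fits with 1 library left out (adjusted p up to 0.0891), holding only without Ern1f/f control replicate 1 or Ern1f/f IL-4 replicate 1, while both Csf1 calls held in all 8. With no filter on low values all 3 were lost (adjusted p 0.0615 to 0.0919). The fit with these terms has 2 residual degrees of freedom and 1 library per group and replicate number. Its p-values thus do not measure how the differences vary between repeated cultures.

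Markers of fibroblasts and stromal cells moved with Csf1 between the replicate numbers and among the replicate 1 libraries. The 10 markers summed to 245.4 FPKM in Ern1f/f control, 112.9 in Ern1f/f IL-4, 663.9 in Ern1f/fLyz2-Cre control and 312.5 in Ern1f/fLyz2-Cre IL-4 of replicate 1. In replicate 2 the sums were 11.1, 11.2, 4.99 and 3.45 FPKM in the same order of groups. All 8 markers tested, such as the collagen gene Col1a1, were lower in replicate 2, with a median difference of -3.43 against -0.11 over all genes. In replicate 1, Csf1 and this sum were both highest in Ern1f/fLyz2-Cre control and both lowest in Ern1f/f IL-4. In replicate 2 the order differed: Csf1 was highest in Ern1f/f IL-4 and lowest in Ern1f/fLyz2-Cre control, while the sum was nearly equal in the Ern1f/f libraries and lowest in Ern1f/fLyz2-Cre IL-4. In replicate 2 the highest library reached 3.44 FPKM for Sparc, 2.595 for Col1a1 and 0.454 for Pdgfrb. Thy1, which was at or under 1.15 FPKM in every library, went the other way and was higher in replicate 2 in 3 of the 4 groups. The part of such cells in the Csf1 values was not tested, and in bulk RNA fewer cells of a type and less RNA per cell cannot be told apart.

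**Figure D4:**
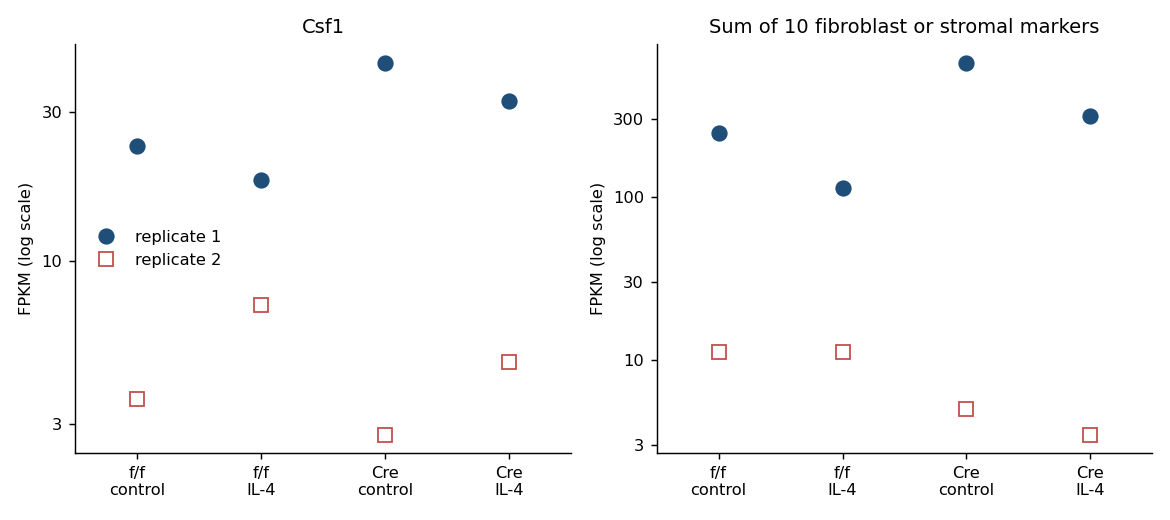
FPKM of Csf1 (left) and summed FPKM of 10 fibroblast or stromal markers (right) in the 8 libraries, by group, on log axes. Filled circles are replicate 1 and open squares replicate 2. In replicate 1 both are highest in Ern1f/fLyz2-Cre control, at 43.1 and 663.9 FPKM.

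Markers of other cells were read beside the IL-4 result. Dendritic cell markers summed to 63.6 to 85.4 FPKM in control and 258.9 to 337.7 FPKM with IL-4, with 7 of the 9 under 1 FPKM in every library. Only 2 of the 9 were tested: Itgax, which macrophages also express, rose by 2.17 (adjusted p = 0.0103) and makes up most of the sum. Cd24a was not called and lay at 1.18 to 7.955 FPKM in control and 1.01 to 3.905 FPKM with IL-4, lower with IL-4 in each of the 4 pairs. Osteoclast markers summed to 258.3 to 342.9 FPKM in control and 490.6 to 586.4 FPKM with IL-4, with 2 of the 8 under 1 FPKM in every library. Atp6v0d2 made up the largest part of the sum, at 152.9 to 215.2 FPKM in control and 300.9 to 396.8 FPKM with IL-4. Of the 6 tested without the block, the fusion genes Ocstamp (3.93, adjusted p = 0.00732) and Dcstamp (2.19, adjusted p = 0.0159) were higher. The other 4, Acp5 and Ctsk among them, were not called. Ocstamp lay under the filter of 1 FPKM in every control library and was tested only through its IL-4 libraries. The part of such cells in the receptor values was not tested.

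The rest of the pathway was read from lists of genes, described by counts with the replicate number in the fit. Beside them stand the shares of all genes called for IL-4 averaged over genotypes, 5.88% higher and 6.86% lower. The lists, like the 7 genes, were chosen with earlier results of these data known. Among 11 other ligands and receptors, only Il3ra, Flt3l and Kitl reached the expression filter, and 0 of these 3 were called by limma (1 at an unadjusted p under 0.05). Il3ra, the IL-3 receptor alpha chain, lay between 25.1 and 41.9 FPKM. Csf2, the gene of GM-CSF, was at most 0.149 FPKM, Il34, the other ligand of Csf1r, at most 1.49 FPKM, and Il3 and Il5 were listed at 0 in every library.

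Of 33 signalling genes below the receptors, 4 were higher and 8 lower with IL-4, with a median difference of -0.17 against -0.027 over all genes. The higher genes were Jak2 (1.39), the kinase bound to the beta chain, Cblb (1.39), a ubiquitin ligase, Dok2 (1.18), an adaptor, and Stat5a (0.35). Among the lower genes were the adaptors Dok3 (-0.98) and Gab3 (-0.77) and the exchange factor Vav1 (-0.53). Without the block 2 were higher (Jak2 and Cblb) and 0 lower by limma, with 11 of the 33 at an unadjusted p under 0.05. Jak2 was at 7.74 to 9.71 FPKM in the control libraries and 20.2 to 31.8 FPKM with IL-4.

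Among PU.1 partner and related factors, 26 of 30 were tested, of which 7 were higher and 3 lower (median 0.049). Irf4, which binds beside PU.1, rose by 2.67, from 0.383 to 0.598 FPKM in control to 5.88 to 11.3 FPKM with IL-4. All control libraries of Irf4 lay under the filter of 1 FPKM, so it was tested only through its IL-4 libraries. Egr2 rose by 2.10, Tfec by 1.39 and Klf4 by 1.33. Lower were the PU.1 relative Spic (-1.30), Irf8 (-0.41), a partner of PU.1 in monocytes, and Nfatc1 (-0.34). Without the block Irf4, Egr2 and Tfec were called.

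Of 26 myeloid genes known as PU.1 targets, 2 were higher and 8 lower, with a median of -0.185 against -0.027 over all genes. Tlr4 (0.59) and the protease gene Ctss (0.42) rose. Cd14, the lipopolysaccharide co-receptor, fell by 1.67, the actin regulator Coro1a by 0.999, the Fc receptor Fcgr1 by 0.95 and Mpeg1 by 0.68. Without the block limma called 0 of the 26, with 8 at an unadjusted p under 0.05. Spi1 itself differed by -0.17 and was not called.

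Of 20 genes known to be induced by CSF1 or by GM-CSF and STAT5, 10 were higher and 3 lower, with a median of 0.498. Cish, a STAT5-induced inhibitor of cytokine signalling, rose by 3.58, from 0.454 to 1.05 FPKM in control to 16.5 to 24.4 FPKM with IL-4. Socs1 rose by 2.36, the chemokine Ccl17 by 1.98 and Socs2 by 1.28. Ccl17 was at 0 FPKM in every control library. With IL-4 it was at 8.46 FPKM in Ern1f/f and 6.84 FPKM in Ern1f/fLyz2-Cre cells of replicate 1. In replicate 2 it was at only 1.06 and 0.57 FPKM. Cish and Ccl17 passed the filter of 1 FPKM in 2 libraries only with the IL-4 libraries counted. Their entry to the test thus depended on the rise, and the count and median above include both. Socs3 fell by 1.11, and the feedback inhibitors Spry2 by 0.59 and Dusp6 by 0.42. Without the block Cish alone was called. Several of these genes, Socs1 and Ccl17 among them, are known targets of IL-4 too. Which signal raised the genes of this list, Cish included, was not tested.

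**Figure D5:**
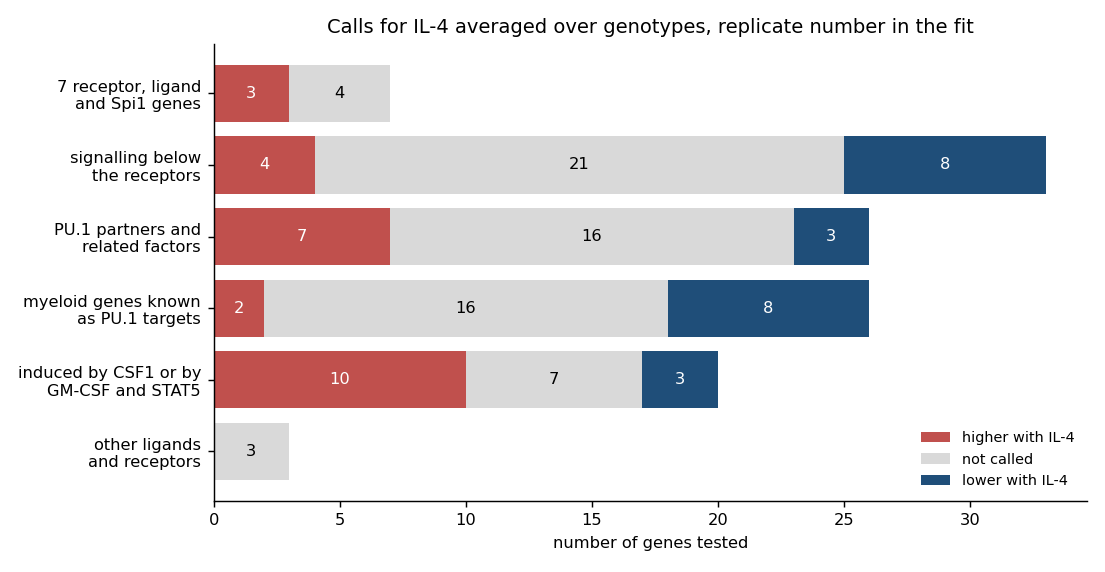
Number of genes tested in each list that were called higher, lower or not called for IL-4 averaged over genotypes, with the replicate number in the fit. Of the 20 genes induced by CSF1 or by GM-CSF and STAT5, 10 were higher and 3 lower, and of the 26 known PU.1 targets 2 were higher and 8 lower. Some genes counted as higher, Cish, Ccl17 and Irf4 among them, passed the expression filter only with the IL-4 libraries counted.

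The genes whose pattern was most like each of the 7 were found by Pearson r of log2(FPKM + 1) over the 8 libraries, after the mean of each replicate number was subtracted, among 7420 genes with a mean of at least 5 FPKM. The libraries are shared by all genes and r is a description. Nearest to Csf2rb were Abcb8 (r = 0.997), Vhl and Slc7a2 (both 0.993). Nearest to Csf2rb2 were Rin2 (0.998), Rbl1 (0.991) and Dhrs9 (0.99), and to Csf2ra Fam20b (0.996), Slc39a6 (0.995) and Gm10485 (0.989). Patl1 (0.982) and Ank (0.975) were nearest to Csf1r, and Psmd3 (0.978), Trmt1 (0.976) and Rabl6 (0.975) to Spi1. Ifi47 (0.969), Pank3 and Fn1 (both 0.966) were nearest to Csf3r, and Kdelr2 and Errfi1 (both 0.964) and Arf4 (0.927) to Csf1. Among the 7 themselves, r was 0.925 between Csf2rb and Csf2rb2, 0.963 between Csf2rb and Csf2ra, and -0.849 between Spi1 and Csf3r.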

How the data were processed

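Messenger RNA was measured in 8 libraries. The deposited tables, 1 per library, hold FPKM per gene, made by the authors with TopHat 1.4.1 and Cufflinks 1.3.0 on mm10, per the submitters' processing notes; the gene models are not given in the sources used here. FPKM divides by transcript length and library size, and read counts were not used here, so depth is unknown beyond the deposited FPKM intervals. Rows sharing a symbol were summed. A gene was tested where 2 or more libraries reached 1 FPKM, which kept 10934. Their log2(FPKM + 1) was fitted in R 4.3.3 by limma 3.58.1 with a variance trend. Tests were two-sided, p-values were Benjamini-Hochberg adjusted over all tested genes, and a call is an adjusted p under 0.05. Folds are on that scale and understate changes of low genes. There were 8 comparisons: IL-4 and genotype, each within the other factor and averaged, the interaction, and the replicate number. The 4 group means were fitted without a block, and again with the replicate number as a block. As a check of pairing, the difference of replicate 2 from 1 was correlated over genes for the 6 pairings of groups, with r from 0.69 to 0.83, so the numbers were taken to pair the samples. The code was tested on simulated data. Named genes from the lists were the largest called differences, up to 4 per list and direction; some genes that the naming rules give are not reported here. The 7 genes and the lists were chosen with earlier results of these data known. Alternatives were the pseudocount, the filter, scaling, the variance trend, repeated symbols and each library left out. Python 3.11.15 and matplotlib 3.10.9 made the figures.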

Additional observations from a re-analysis of the deposited data

Results flagged for a closer look

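The IL-4 difference of Csf1 was not the same in the 2 replicate numbers. On the log2 scale it was larger by 1.10 in replicate 2 than in replicate 1 by a test of the difference itself (limma, adjusted p = 0.000118). That term called 10.8% of all genes, and the genotype term 5.66%. Each group had 1 library per replicate number, so these p-values do not measure how the differences vary between repeated cultures. The call held in all 8 fits with 1 library left out (0.98 to 1.21) and was lost with no filter on low values (adjusted p = 0.0615). The genotype difference of Csf1 differed as well, by -1.23 (adjusted p = 3.55e-05), and this held in all 8 fits with 1 library left out and was lost with no filter (adjusted p = 0.0659). For Csf3r the IL-4 difference was larger by 0.68 in replicate 2 (adjusted p = 0.00786). It was lost in 6 of the 8 fits with 1 library left out (adjusted p up to 0.0891), and held without Ern1f/f control replicate 1 or Ern1f/f IL-4 replicate 1. It was lost with no filter (adjusted p = 0.0919). The fit behind these values was chosen after the data were seen.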

How the results depend on the processing

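With the replicate block, the genes called for IL-4 among the 7 went from 0 to 1 in Ern1f/f cells, from 0 to 1 in Ern1f/fLyz2-Cre cells and from 1 to 3 averaged, while in the whole table they went from 0 to 232, from 6 to 363 and from 92 to 1393; the block changed no other call of the 7. With the block and no filter on low values, 0 of the 7 were called within either genotype and 2 averaged, and 3, 2 and 657 genes in the whole table. Without the block, scaling to the median ratio called 11 and 18 genes within the genotypes, and pseudocount 0.1, no filter and no variance trend each called 0 in Ern1f/fLyz2-Cre cells. Scaling also turned 2 small differences: the genotype difference of Csf2rb2 to -0.0047 and the interaction of Csf2ra to -0.022. The cause was not tested. With 1 library left out, a lone sample is assumed to vary like the other groups. The number called for IL-4 averaged was then 0 without the block and 1 to 2 with it, and 0 to 1 with the block within each genotype. Without the block, the IL-4 difference of Csf2ra then ranged from -0.093 to 0.85 in Ern1f/f cells and from -0.049 to 0.87 in Ern1f/fLyz2-Cre cells. Averaged and also without the block, it ranged from -0.049 to 0.52 for Csf1r and from -0.71 to 1.06 for Csf1. With the block, the averaged IL-4 difference of Csf2ra ranged from 0.349 to 0.441. The averaged genotype difference without the block ranged from -0.38 to 0.18 for Csf1r and -0.67 to 1.10 for Csf1. For Csf2ra it ranged from -0.31 to 0.17 and for Csf2rb2 from -0.17 to 0.17. The interaction without the block ranged from -0.44 to 0.50 for Csf2ra and -0.52 to 0.16 for Csf2rb2. The replicate difference of Spi1 ranged from -0.018 to 0.19. For Csf2rb2 the replicate call was lost with no filter and with scaling (adjusted p up to 0.0639).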
